A study of Mus musculus with 8 samples.

Results

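The proteasome is the protease that removes most short-lived and misfolded proteins, and the transcripts of its subunits and assembly factors were measured here in skeletal muscle of mice heterozygous for Eif6. Genes were taken by symbol: those starting with Psma, Psmb, Psmc, Psmd, Psme, Psmf or Psmg that are not pseudogenes, named through the RefSeq accession of each probe. The rule gave 51 genes, of which 50 had a probe among the 20660 named genes on the array and 48 were bright enough to be tested in each muscle; Psme2b had no probe. Eif6 encodes a translation initiation factor that binds the large ribosomal subunit. Each of 8 two-colour arrays held muscle RNA of 1 Eif6+/- mouse (labelled Het, in Cy5) and 1 WT mouse (in Cy3), with 4 arrays for gastrocnemius and 4 for tibialis anterior (TA). The mice were male C57BL6 littermates, Eif6+/- or Eif6+/+, 8 to 16 weeks old by the study's methods. No array had the dyes swapped, so dye and genotype cannot be told apart within a muscle. The arrays of each muscle sat side by side on 1 slide, so position on the slide and muscle cannot be told apart.

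The proteasome consists of a barrel, the 20S core, capped by regulators that feed it with substrates. Alpha rings gate the barrel, beta rings carry the peptidases, and the 19S regulator binds ubiquitin chains, unfolds the protein with its ATPases and threads it into the core. In skeletal muscle the ubiquitin-proteasome pathway degrades myofibrillar proteins, and its genes are known for rising during muscle wasting.

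The labels were checked first. The brighter of 2 Eif6 probes gave log2 ratios (Eif6+/- over WT) of -0.97, -1.15, -0.89 and -1.06 in gastrocnemius pairs 1 to 4. In TA it gave -1.22, -1.03, -0.95 and -0.80. Eif6 was thus lower in the Eif6+/- mouse on 8 of 8 arrays, with an adjusted p of 0.0241 in gastrocnemius and 0.0109 in TA (limma, Benjamini-Hochberg over all probes kept in that muscle). The skeletal muscle markers Acta1, Ckm, Myod1, Des, Mb and Ryr1 were well above background in all 16 channels. In gastrocnemius pair 1, 6 slow fibre markers summed to a log2 signal of 17.02 in the Eif6+/- mouse and 13.78 in the WT mouse, a gap wider than in any other pair.

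A gene is called below where its adjusted p was under 0.1. In gastrocnemius 10 of 48 proteasome genes were called between genotypes (20.8%), against 15.4% of the 12609 genes tested. Of these, 3 were higher in Eif6+/- (all genes 9.85%) and 7 were lower (all genes 5.53%). In TA 11 of 48 were called (22.9%), against 16.3% of 12381 genes, 6 of them higher (all genes 8.98%) and 5 lower (all genes 7.29%). Those counted as higher include Psmc3 in both muscles and Psmb5 in TA, whose second probes were called lower, as given below. With Agilent's processed signals the counts were 2 in gastrocnemius and 1 in TA, with 1000 and 774 of all genes called, and with SAM at an FDR of 0.1 they were 15 and 15, with 3158 and 2604 of all genes. The median log2 ratio of the 48 genes was 0.0022 in gastrocnemius and 0.00092 in TA, beside 0.020 and 0.019 over all genes, and 24 of 48 were above 0 in each muscle. The counts changed with the array left out. Without gastrocnemius pair 3, and likewise without pair 4, no proteasome gene was called by limma, with 12 and 11 of them at an unadjusted p under 0.05 and no gene of 12609 called. Without pair 1 and pair 2 the counts were 9 and 7, with 1766 and 1351 of all genes. The loss holds for the whole array and tells nothing of the proteasome genes alone. All 10 genes kept the sign of their mean log2 ratio under 15 alternative settings, with Psme3 from 0.51 to 0.68, Psmb7 from -0.92 to -0.66 and, smallest, Psmc3 from 0.0014 to 0.29. In TA the count was 1 without pair 1 and 5 without pair 2, where 68 and 531 of all 12381 genes were called, and 10 without pair 3 and 12 without pair 4, with 1185 and 2020 of all genes.

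**Figure D1:**
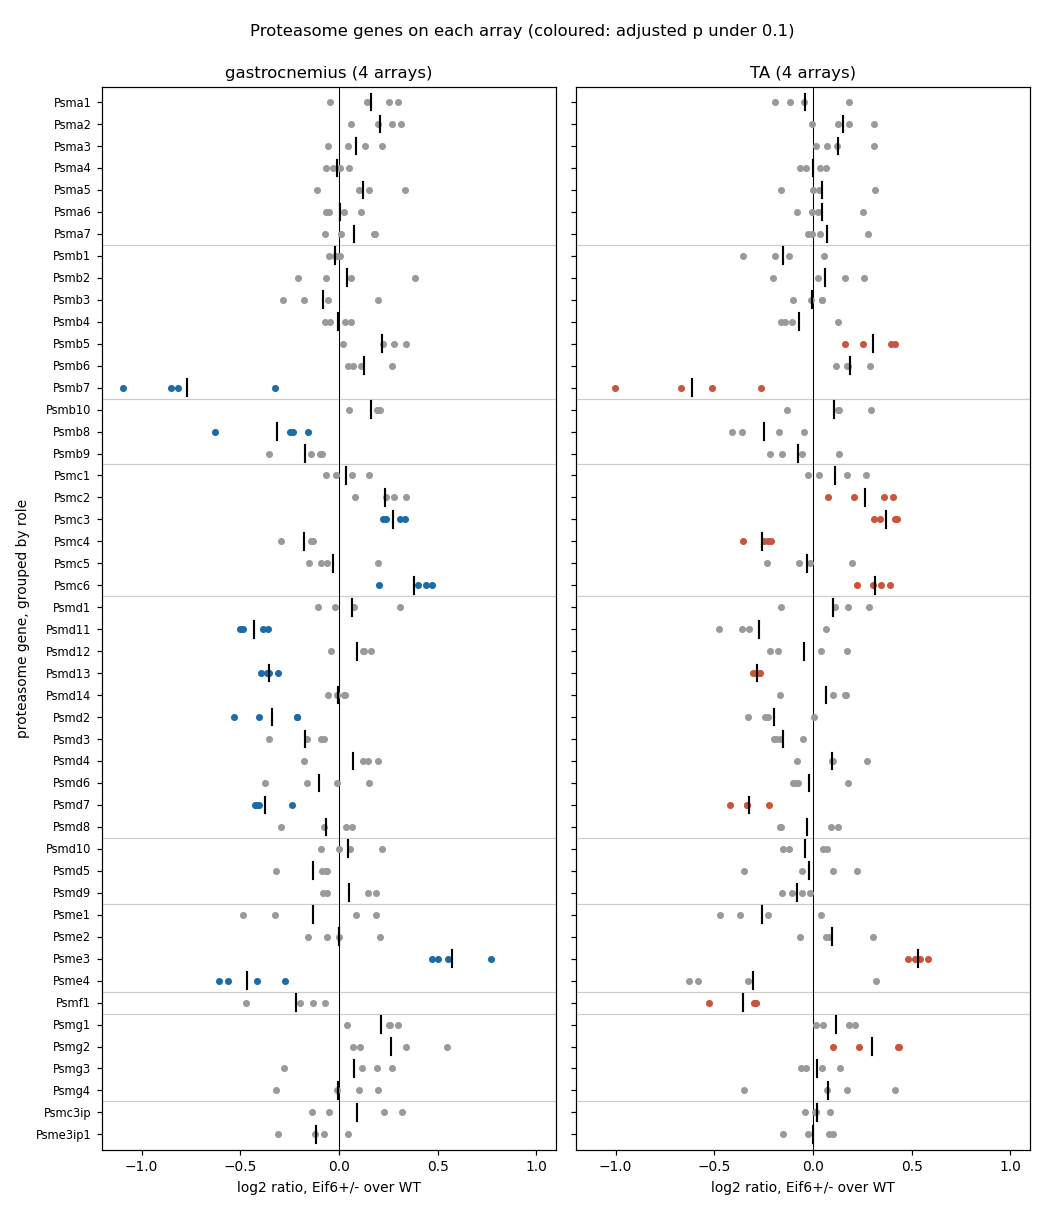
Log2 ratio of Eif6+/- over WT (horizontal axis) for each of 48 proteasome genes (vertical axis, grouped by role) on the 4 gastrocnemius arrays (left) and the 4 TA arrays (right), with points for arrays, a black bar for the mean and colour for an adjusted p under 0.1. Psme3 lies to the right of 0 and Psmb7 to the left on all 8 arrays.

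Of the 20S alpha ring, 7 of 8 subunits were tested and none was called between genotypes. Of all genes, 15.4% were called in gastrocnemius and 16.3% in TA. The mean log2 ratios of the ring ran from -0.01 to 0.21 in gastrocnemius and from -0.04 to 0.15 in TA. Psma8, the testis form of the ring subunit, was not well above background on any array in either channel. Of the 7 constitutive beta ring subunits, 1 was lower in gastrocnemius, Psmb7 (all genes 5.53%), and none was higher (all genes 9.85%). In TA Psmb7 was lower (all genes 7.29%) and Psmb5 was higher on its brighter probe (all genes 8.98%). Psmb7, the subunit with trypsin-like activity, had log2 ratios of -0.32, -1.09, -0.85 and -0.82 in gastrocnemius and of -1.003, -0.67, -0.51 and -0.27 in TA. All 8 values were below 0, and they spread more widely than those of any other proteasome gene called in the muscle. The log2 signals varied more in WT (SD 0.42 in gastrocnemius and 0.32 in TA) than in Eif6+/- (SD 0.11 in each). Psmb7 was lower in Eif6+/- by 1.71-fold in gastrocnemius (mean log2 ratio -0.77, SE 0.12, adjusted p = 0.0317) and by 1.53-fold in TA (-0.61, SE 0.11, adjusted p = 0.0265), the lowest mean of the 48 genes in each muscle. The difference between the muscles was -0.16, with a 95% confidence interval from -0.57 to 0.25.

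Psmb5, the subunit with chymotrypsin-like activity, was measured by 2 probes that pointed opposite ways. On the brighter probe the log2 ratios were 0.02, 0.28, 0.34 and 0.22 in gastrocnemius and 0.41, 0.39, 0.16 and 0.25 in TA. The dimmer probe gave -0.41, -0.36, -0.26 and -0.37 in gastrocnemius and -0.45, -0.42, -0.43 and -0.29 in TA. Every array put the brighter probe above 0 and the dimmer one below it. In TA the brighter probe was called higher (0.31, adjusted p = 0.0491) and the dimmer probe lower (-0.40, adjusted p = 0.0237), and in gastrocnemius the dimmer probe alone was called, also lower (-0.35, adjusted p = 0.0428), so the direction of Psmb5 was not settled. With the probes averaged its mean log2 ratio was -0.07 in gastrocnemius and -0.05 in TA. The remaining constitutive beta subunits ranged from -0.08 to 0.13 in gastrocnemius and from -0.15 to 0.19 in TA.

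Interferon gamma induces a second set of catalytic beta subunits, which replace the constitutive ones in the immunoproteasome and trim peptides for display by MHC class I. Psmb8, 1 of these, had log2 ratios of -0.25, -0.23, -0.63 and -0.16 in gastrocnemius and of -0.05, -0.17, -0.41 and -0.36 in TA. All 8 lay below 0, with pair 3 lowest in each muscle. It was lower in gastrocnemius (-0.32, SE 0.095, adjusted p = 0.0942) and not called in TA (-0.25, adjusted p = 0.101), and the difference between the muscles was -0.07 (95% confidence interval -0.35 to 0.21). The gastrocnemius call was lost under 9 of 15 alternative settings (adjusted p up to 0.315), among them each removal of 1 array. Psmb9 had a mean log2 ratio of -0.17 in gastrocnemius and Psmb10 of 0.16, neither called. Psmb11, the thymus subunit, was not well above background on any array.

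Partners of the immunoproteasome in antigen presentation were read beside Psmb8. Of 9 tested, 3 were called in gastrocnemius, all lower (5.53% of all genes were called lower), and the median log2 ratio of the list was -0.13. H2-D1, a class I heavy chain, gave -0.32, -0.46, -1.12 and -0.59 (mean -0.62, adjusted p = 0.0465). Tapbp, which loads peptides on class I molecules, gave -0.32, -0.33, -0.77 and -0.44 (mean -0.46, adjusted p = 0.0446). H2-K1, another heavy chain, gave -0.25, -0.12, -0.71 and -0.28 (mean -0.34, adjusted p = 0.0996). Pair 3 was the lowest array for each of the 3 genes, as for Psmb8. In TA 1 of the 9 was lower (Tapbp, -0.27, all genes 7.29%) and 1 higher (Nlrc5, 0.24, all genes 8.98%), with a list median of 0.04. Leukocyte markers were also lowest on that array. In gastrocnemius 1 of 6 tested was called, Cd74 (-1.10, adjusted p = 0.045), and the list's median was -0.62, against -0.05 over 7 tested in TA.

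The summed signal of 7 leukocyte markers, led by Csf1r, had log2 values of 12.04, 12.18, 12.04 and 12.00 in Eif6+/- gastrocnemius pairs 1 to 4 and of 12.96, 12.25, 13.39 and 12.18 in WT. The WT mouse of pair 3 stood highest and that of pair 1 next, while the other WT values lay near those of the Eif6+/- mice. For Psmb8 the WT log2 signal of gastrocnemius pair 3 was 8.73, with the other pairs from 8.57 to 8.78. The Eif6+/- signal of Psmb8 in that pair was 8.10, with the other pairs from 8.33 to 8.58. Fewer cells of a type and less RNA per cell cannot be told apart in whole muscle. Connective tissue and blood markers were also lowest on gastrocnemius pair 3. Their summed signals had log2 ratios of -1.37 (connective tissue) and -0.93 (blood) there, against 0.03 to 0.33 and -0.70 to -0.05 in the other pairs. On TA pair 3, where Psmb8 was lowest in TA, the ratios of these sums were 0.0021 for leukocyte, 2.15 for connective tissue and -0.62 for blood markers, and the connective tissue value was the highest of all 8 arrays. The part of any of these cell types in the values of Psmb8 and its partners was not tested.

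The 19S ATPases form the ring that unfolds substrates. In gastrocnemius 2 of 6 were higher (all genes 9.85%) and none lower (all genes 5.53%), and in TA 3 were higher (8.98%) and 1 lower (7.29%). Psmc3, whose probes disagree as given below, is 1 of those counted as higher in each muscle. Psmc6 gave 0.47, 0.21, 0.40 and 0.44 in gastrocnemius and 0.39, 0.22, 0.30 and 0.34 in TA. All 8 arrays were above 0 and the muscles overlapped (means 0.38 and 0.32, adjusted p = 0.0438 and 0.0386). Psmc2 gave 0.08, 0.28, 0.24 and 0.34 in gastrocnemius, where it was not called (adjusted p = 0.11). In TA it gave 0.40, 0.36, 0.08 and 0.21 and was called (mean 0.26, adjusted p = 0.0802). The TA call was lost under 9 of 15 alternative settings (adjusted p up to 0.291). A second Psmc2 probe had means of 0.20 in each muscle. Psmc4 was lower in TA (mean -0.26, adjusted p = 0.0578), a call lost under 6 of 15 alternative settings. Its values there were -0.35, -0.25, -0.23 and -0.21. Its gastrocnemius values were -0.14, -0.30, -0.13 and -0.14, all below 0 and not called (adjusted p = 0.175).

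Psmc3, a further ATPase, shared the pattern of Psmb5. Its brighter probe gave 0.22, 0.33, 0.31 and 0.24 in gastrocnemius and 0.43, 0.41, 0.34 and 0.31 in TA. The dimmer probe gave -0.12, -0.42, -0.30 and -0.25 in gastrocnemius and -0.31, -0.31, -0.25 and -0.09 in TA. No array put the probes on the same side of 0. All 4 means were called, at 0.28 and -0.27 in gastrocnemius (adjusted p = 0.0646 and 0.0841) and at 0.37 and -0.24 in TA (adjusted p = 0.0257 and 0.0791). With the probes averaged the mean was 0.0014 in gastrocnemius and 0.06 in TA, neither called, so no direction is given for Psmc3.

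Both genes belong to 11 proteasome genes that had 2 tested probes. The probes of a gene had opposite signs in 5 of the 11 in gastrocnemius and in 8 of the 11 in TA. The share over all genes with 2 tested probes was not computed. Some of these signs belong to values near 0. Psmd12 had 0.09 and -0.01 in gastrocnemius and -0.04 and 0.03 in TA, with neither probe called. The gap between the probes correlated across the 11 genes between muscles (r = 0.921), the arrays sharing probes, dye orientation and slide. Psmc1, an ATPase, had a brighter probe at 0.11 and a dimmer one at -0.23 in TA, the latter called (adjusted p = 0.0763). For Psme2, the second subunit of the PA28 activator, the brighter probe stood at -0.0020 in gastrocnemius and the dimmer at -0.25, the latter called (adjusted p = 0.0851). Psmd10, an assembly chaperone also known as gankyrin, had -0.04 and 0.30 in TA, the latter called (adjusted p = 0.0979). The direction of Psmb5 and Psmc3, and the calls of Psmc1, Psme2 and Psmd10, thus depended on the probe. Whether this is more common among proteasome genes than among other genes was not tested. The probe of highest mean signal stands for the gene in every count given.

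**Figure D2:**
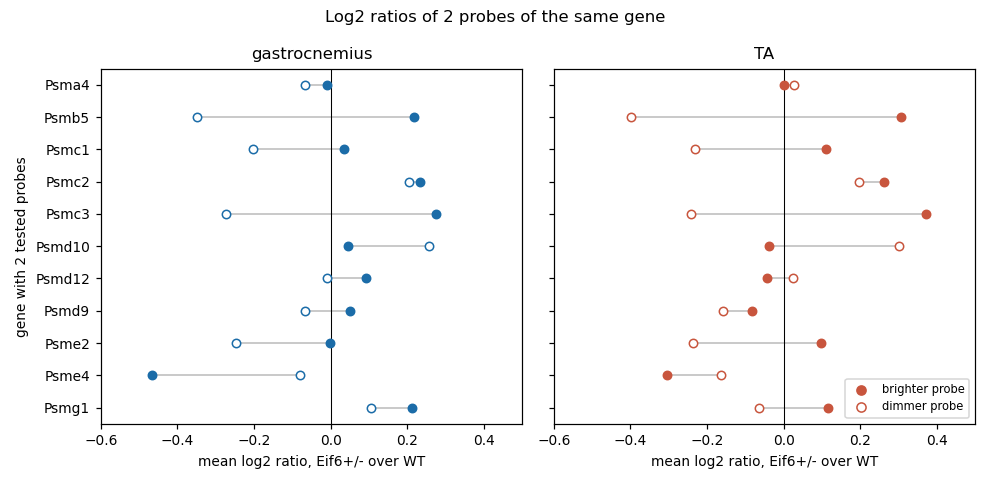
Mean log2 ratio of Eif6+/- over WT (horizontal axis) on the brighter (filled) and the dimmer (open) probe of each of 11 proteasome genes with 2 tested probes (vertical axis), in gastrocnemius (left) and TA (right). Psmb5 and Psmc3 have 1 probe on each side of 0 in both muscles.

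The 19S non-ATPase subunits form the lid and the docking base that receive ubiquitinated proteins. None of 11 was higher in either muscle (all genes 9.85% in gastrocnemius and 8.98% in TA), while 4 were lower in gastrocnemius (5.53%) and 2 in TA (7.29%). Psmd13, a lid subunit, gave -0.35, -0.39, -0.36 and -0.31 in gastrocnemius and -0.31, -0.27, -0.27 and -0.29 in TA. Its arrays lay closer together than those of any other proteasome gene called in the muscle (means -0.36 and -0.28, SD 0.034 and 0.016, adjusted p = 0.04 and 0.0432). Psmd7, the lid partner of the deubiquitinase subunit, gave -0.40, -0.43, -0.24 and -0.42 in gastrocnemius and -0.33, -0.33, -0.42 and -0.22 in TA. It was lower in both muscles (means -0.37 and -0.33, adjusted p = 0.0416 and 0.0375).

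Psmd11, a lid scaffold, gave -0.48, -0.36, -0.39 and -0.50 in gastrocnemius, where it was lower (mean -0.43, adjusted p = 0.0322). In TA it gave -0.32, 0.07, -0.48 and -0.36 and was not called (adjusted p = 0.113), with pair 2 alone above 0. Psmd2, a base subunit that docks ubiquitin shuttles, gave -0.21, -0.53, -0.41 and -0.21 in gastrocnemius (mean -0.34, adjusted p = 0.062). In TA it gave -0.33, -0.23, -0.24 and 0.0035 (mean -0.20, adjusted p = 0.142). Its gastrocnemius call was lost under 6 of 15 alternative settings. The differences between the muscles were -0.16 for Psmd11 (95% confidence interval -0.43 to 0.11) and -0.14 for Psmd2 (-0.39 to 0.11). The other non-ATPase subunits reached from -0.17 to 0.09 in gastrocnemius, and none was called. The 19S assembly chaperones Psmd5, Psmd9 and Psmd10 were not called on their brightest probes, at -0.13 to 0.05 in gastrocnemius and -0.08 to -0.02 in TA.

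Activators other than the 19S regulator open the barrel without ubiquitin. Psme3 (PA28 gamma), the nuclear activator, gave 0.77, 0.50, 0.47 and 0.55 in gastrocnemius and 0.52, 0.58, 0.48 and 0.54 in TA. No other proteasome gene had a mean as high in either muscle, and the 2 sets of arrays overlapped. It was higher in Eif6+/- by 1.49-fold in gastrocnemius (mean 0.57, SE 0.08, adjusted p = 0.0287) and by 1.44-fold in TA (mean 0.53, SE 0.066, adjusted p = 0.0119). Psme3 was the 1 proteasome gene still called in TA without pair 1 (adjusted p = 0.0987). Psme1, the first PA28 subunit, had means of -0.13 and -0.26 and was not called.

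Psme4 (PA200), which caps the core in the nucleus and takes part in histone degradation, gave -0.28, -0.61, -0.56 and -0.42 in gastrocnemius. It was lower there (mean -0.47, SE 0.083, adjusted p = 0.0357). In TA it gave -0.33, -0.58, -0.63 and 0.32, and was not called (mean -0.31, adjusted p = 0.211). TA pair 4 stood apart on the other side of 0, and without it the TA mean was -0.51 (adjusted p = 0.0322). That was 1 of 15 alternative settings, and the other 14 left Psme4 uncalled in TA. In TA Psmb8, Psmd11 and Psmd2 also gained a call under 1 of 15 settings each. For Psme4 the difference between the muscles was -0.16 (95% confidence interval -0.58 to 0.26). A dimmer probe of Psme4 had means of -0.08 and -0.16, neither called.

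Psmf1 (PI31), known as an inhibitor of the isolated core, gave -0.07, -0.47, -0.13 and -0.19 in gastrocnemius and -0.53, -0.30, -0.29 and -0.30 in TA. All 8 arrays lay below 0. It was lower in TA (mean -0.35, adjusted p = 0.0362) and not called in gastrocnemius (-0.22, adjusted p = 0.173). Of the chaperones that build the core, Psmg2 gave 0.11, 0.55, 0.34 and 0.07 in gastrocnemius and 0.43, 0.44, 0.23 and 0.10 in TA. It was higher in TA (mean 0.30, adjusted p = 0.0632), and its gastrocnemius mean of 0.27 was not called (adjusted p = 0.143). The TA call of Psmg2 was lost under 6 of 15 alternative settings. Psmg1, Psmg3 and Psmg4 were not called. Psmc3ip, a meiotic recombination factor, and Psme3ip1, which binds Psme3, are no subunits of the proteasome and were not called.

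The genotype effects of the muscles were set against each other. Called in both were 6 genes: Psme3, Psmc6 and Psmc3 higher, Psmb7, Psmd7 and Psmd13 lower, with the reservation on Psmc3 given above. That is 12.5% of the 48 genes, against 6.36% of 12200 genes called in both muscles. Across the 48 genes the mean log2 ratios correlated between muscles (r = 0.922, 40 of 48 with the same sign), and across 12200 genes r was 0.535 (8780 with the same sign). The muscles share dye orientation and slide, and genes are not independent replicates. Tested directly by limma, gastrocnemius minus TA, 0 of 48 proteasome genes were called, against 0% of 12200 genes. None of the 48 and 995 of the 12200 had an unadjusted p under 0.05. A dye effect that is equal on all arrays cancels in this difference.

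**Figure D3:**
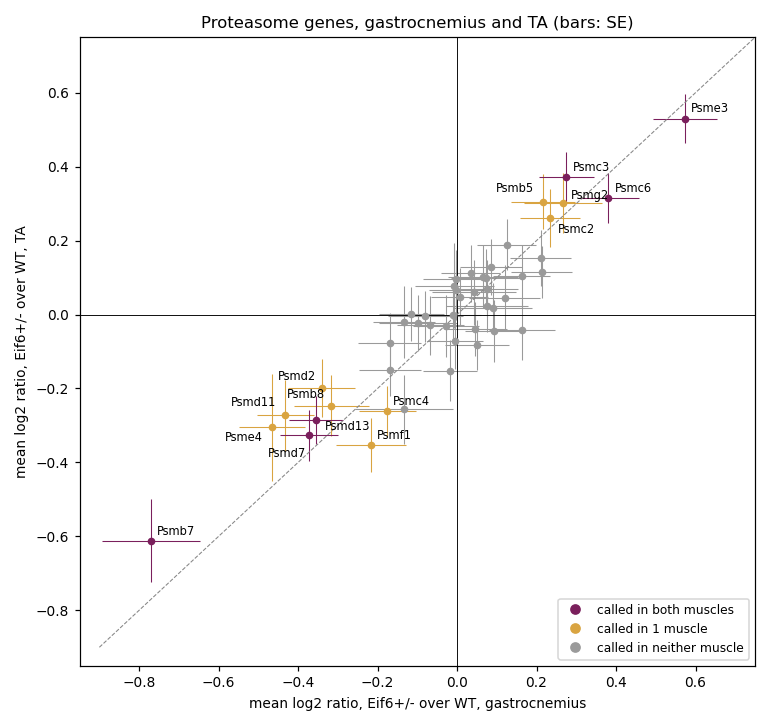
Mean log2 ratio of Eif6+/- over WT in gastrocnemius (horizontal axis) and TA (vertical axis) for 48 proteasome genes, with SE bars and a dashed line of equality. Psme3 sits at the upper right (0.57 and 0.53) and Psmb7 at the lower left (-0.77 and -0.61).

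The muscles were then compared within 1 dye at a time. Among WT mice (Cy3), 1 of 48 proteasome genes differed between TA and gastrocnemius (2.08%), against 21.1% of 12200 genes. None was higher in TA (all genes 13.2%) and 1 was lower (all genes 7.9%). The median size of the log2 difference was 0.084 for the 48 genes and 0.15 for all genes. Among Eif6+/- mice (Cy5), 4 of 48 were called (8.33%), against 16.9% of all genes, 3 higher in TA (all genes 10.2%) and 1 lower (all genes 6.67%). A dimmer probe of Psmd9, an assembly chaperone, was higher in TA in WT (0.32, adjusted p = 0.0957) and in Eif6+/- (0.23, adjusted p = 0.0751), and is in neither count. Leaving out 1 array at a time gave 1 to 3 in WT, with 1543 to 2595 of all 12200 genes called, and 0 to 3 in Eif6+/-, with 952 to 2287 of all genes. The WT count was 3 without TA pair 1 or gastrocnemius pair 1 and 2 without gastrocnemius pair 2. In Eif6+/- it was 0 without TA pair 2 or gastrocnemius pair 1, 2 or 4, 1 without TA pair 1, and 2 without TA pair 3 or 4.

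Psme4 was the gene lower in TA in both genotypes. In WT mice its normalized log2 signals were 10.41, 10.69, 10.30 and 10.45 in gastrocnemius and 10.13, 9.95, 9.90 and 9.49 in TA, with no overlap. The difference was -0.59 (SE 0.14, adjusted p = 0.0261), and it was called under all 19 alternative settings run, with adjusted p from 0.025 to 0.0699. In Eif6+/- mice the signals were 10.13, 10.08, 9.73 and 10.03 in gastrocnemius and 9.80, 9.37, 9.27 and 9.81 in TA. Here the lowest gastrocnemius value lay within the TA range, and the difference was -0.43 (SE 0.14, adjusted p = 0.078), a call lost under 9 of 19 settings. The dimmer Psme4 probe differed by -0.35 in WT (adjusted p = 0.12) and by -0.44 in Eif6+/- (adjusted p = 0.0108).

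Psmb3, a beta ring subunit without peptidase activity, was higher in TA of Eif6+/- mice, with signals of 12.87, 12.98, 13.17 and 12.90 in gastrocnemius and 13.20, 13.21, 13.28 and 13.31 in TA. These did not overlap (difference 0.27, adjusted p = 0.0551). Psma2, an alpha ring subunit, had 13.41, 13.43, 13.33 and 13.42 in gastrocnemius and 13.56, 13.68, 13.56 and 13.55 in TA (difference 0.19, adjusted p = 0.0823). Psmb6, the subunit with caspase-like activity, had 14.69, 14.57, 14.64 and 14.65 in gastrocnemius and 14.85, 14.84, 14.84 and 14.73 in TA (difference 0.18, adjusted p = 0.0951). Neither of these overlapped between muscles. The genes were picked by the test on the same values, so the lack of overlap adds no support, for Psme4 in WT as well. Its share over all genes was not computed. In WT mice the differences of Psmb3, Psma2 and Psmb6 were 0.20, 0.25 and 0.11, none called. In Eif6+/- mice the call was lost under 8 of 19 alternative settings for Psmb3, 12 for Psma2 and 14 for Psmb6.

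**Figure D4:**
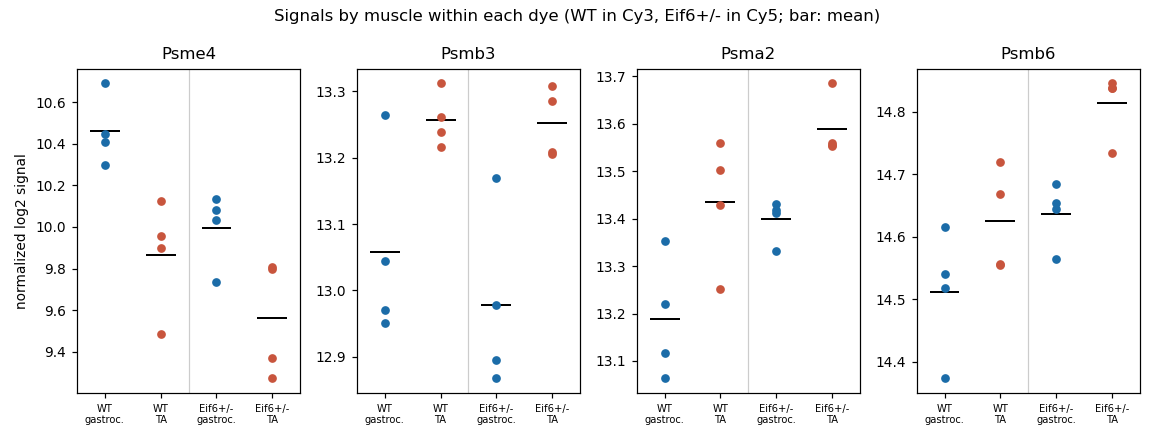
Normalized log2 signal (vertical axis, separate scale for each gene) of Psme4, Psmb3, Psma2 and Psmb6 in WT (Cy3) and Eif6+/- (Cy5) mice, for gastrocnemius and TA, with a point for each array and a bar for the mean. Psme4 is lower in TA than in gastrocnemius, by 0.59 in WT and 0.43 in Eif6+/-.

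Tissue markers also differed between the muscles. Of all genes, 7.9% were lower in TA of WT mice and 6.67% in TA of Eif6+/- mice. Of 6 slow fibre markers 5 were lower in TA of WT mice and 6 of Eif6+/- mice (median differences -2.25 and -2.85). In WT mice their summed log2 signals, led by Myl3, were 13.78, 15.97, 15.30 and 17.21 in gastrocnemius and 13.53, 15.07, 13.30 and 15.21 in TA. The muscles overlapped in that sum, and the WT gastrocnemius of pair 1 lay among the TA values. In WT mice 4 of 5 connective tissue markers (median -1.06) and 3 of 4 fat cell markers (median -2.27) were also lower in TA. In Eif6+/- mice 1 of 5 connective tissue markers was lower (median -0.52), and of the fat cell markers 2 were lower and 1 higher (median -1.25). Leukocyte markers had a median of -0.78 in WT (1 of 6 lower) and -0.23 in Eif6+/- (2 of 6 lower). Of 6 fast fibre markers in WT mice, Myh1 was higher in TA (1.45, all genes 13.2%) and Mybpc2 lower (-0.51). The median of that list was -0.26, so Myh1 went against it. Of 6 skeletal muscle markers in WT mice Mb was higher (1.35), with a list median of -0.04. In Eif6+/- mice 1 marker of each of these 2 lists was higher in TA (all genes 10.2%), with medians of 0.0026 and -0.087.

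Between genotypes the shares of all genes were 9.85% higher and 5.53% lower in gastrocnemius and 8.98% higher and 7.29% lower in TA. Beside these, all 4 blood markers tested were lower in Eif6+/- TA (median -1.01), against 0 of 3 in gastrocnemius, where limma gave all 3 an unadjusted p under 0.05. Of 6 skeletal muscle markers 3 were lower in Eif6+/- TA (median -0.37) and 2 in Eif6+/- gastrocnemius (median -0.20). Among 6 fast fibre markers 1 was higher and 2 were lower in gastrocnemius (median 0.012), and 1 was higher in TA (median 0.030). Of 4 endothelium markers 1 was lower in TA (median -0.11) and none was called in gastrocnemius (median -0.14). Slow fibre markers were lower in 3 of 6 in TA (median -0.45), and none of the 6 was called by limma in gastrocnemius (median 0.35, 0 at an unadjusted p under 0.05). Fat cell markers were lower in 2 of 4 in gastrocnemius (median -0.48) and higher in 1 of 4 in TA (median 0.47). The part of these markers in the values of Psme4 or of any other proteasome gene was not tested.

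Outside the rule, 44 partner genes of the pathway were listed and 42 tested. In gastrocnemius 4 were higher and 6 lower, with 15.4% of all genes called, and in TA 5 were higher and 4 lower, with 16.3% of all genes called. Nfe2l1, a transcription factor that drives proteasome genes when proteasome activity is short, gave 0.11, -0.69, -0.04 and -0.21 in gastrocnemius and -0.60, -0.37, -0.46 and -0.18 in TA. All TA arrays were below 0 and the gastrocnemius arrays fell on both sides (TA mean -0.40, adjusted p = 0.0364; gastrocnemius -0.21, adjusted p = 0.351). Ddi2, the protease that activates the Nfe2l1 protein, was lower in gastrocnemius (-0.39, adjusted p = 0.0479) and stood at -0.07 in TA. Bach1, a repressor at antioxidant response elements, was higher in both muscles (0.41 and 0.33), and Maff, a small Maf protein, in gastrocnemius (0.43).

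Ubqln4, a ubiquitin shuttle, was lower in gastrocnemius (-0.55, adjusted p = 0.0311) and in TA (-0.42, adjusted p = 0.057). Its relative Ubqln1 was higher in gastrocnemius (0.34). Zfand2a, a stress-induced proteasome-binding protein, was higher in both muscles (0.30 and 0.36), and Ufd1, a cofactor of the unfoldase Vcp, in TA (0.33). Pomp, the maturation factor of the core, was higher in TA (0.24, adjusted p = 0.0882), and Akirin2, which brings proteasomes into the nucleus, was lower there (-0.31). Ubb, a polyubiquitin gene, was lower in gastrocnemius (-0.31, adjusted p = 0.093). Between muscles 3 of the 42 partners were called in WT mice (all genes 21.1%), Maff higher and Rps27a and H2-D1 lower in TA. In Eif6+/- mice 5 were called (all genes 16.9%), with Ube3c, Ufd1, Zfand2a and Nlrc5 higher in TA and Ecpas lower.

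Promoter sequences of RefSeq (GRCm38.p6), each 300 bases long, were searched on both strands for short motifs, and 43 of the 51 genes had 47 promoters. Psma8, Psmb1, Psmb2, Psmb7, Psmc3, Psmd3, Psmd7 and Psmg2 had no entry. TGACNNNGC, the core of the antioxidant response element bound by Nfe2l1 and Nfe2l2, was in 6 of the 47 (12.8%) and in 12.4% of all 32851 promoters. CCAAT, the NF-Y box, was in 16 (34%, all promoters 37.4%). The interferon regulatory factor element (GAAA, 2 free bases and GAAA again) was in 5 (10.6%, all promoters 3.44%): Psmb3, Psmd4, Psmd9, Psme1 and Psmg4, none an immunoproteasome subunit. A match describes letters and no binding.

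The called members whose promoter holds the antioxidant core are shown because they differed in several directions, with the match in capitals. Psmc6 (chr14:45329574-45329873 on the plus strand) was higher in both muscles, Psmb5 (chr14:54617946-54618245 on the minus strand) had opposed probes, Psme4 (chr11:30771525-30771824 on the plus strand) was lower in gastrocnemius, and Psmb6 (chr11:70525107-70525406 on the plus strand) was higher in TA than in gastrocnemius of Eif6+/- mice.
Psmc6: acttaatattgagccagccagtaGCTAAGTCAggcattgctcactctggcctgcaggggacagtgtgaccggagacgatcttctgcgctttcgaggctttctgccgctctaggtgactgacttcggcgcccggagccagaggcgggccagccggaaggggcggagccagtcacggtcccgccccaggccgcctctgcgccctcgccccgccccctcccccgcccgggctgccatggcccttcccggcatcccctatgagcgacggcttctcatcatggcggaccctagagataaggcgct
Psmb5: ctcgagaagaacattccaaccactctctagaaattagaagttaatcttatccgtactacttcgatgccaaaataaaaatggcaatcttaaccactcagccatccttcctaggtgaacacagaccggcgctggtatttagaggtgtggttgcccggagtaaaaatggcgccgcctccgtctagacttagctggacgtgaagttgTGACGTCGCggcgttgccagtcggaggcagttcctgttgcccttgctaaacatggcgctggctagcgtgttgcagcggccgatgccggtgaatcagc
Psme4: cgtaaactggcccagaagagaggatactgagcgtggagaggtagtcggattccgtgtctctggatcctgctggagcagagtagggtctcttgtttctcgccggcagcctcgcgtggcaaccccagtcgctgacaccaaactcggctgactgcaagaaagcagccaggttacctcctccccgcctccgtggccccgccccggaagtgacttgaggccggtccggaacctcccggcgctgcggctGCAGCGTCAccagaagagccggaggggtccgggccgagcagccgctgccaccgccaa
Psmb6: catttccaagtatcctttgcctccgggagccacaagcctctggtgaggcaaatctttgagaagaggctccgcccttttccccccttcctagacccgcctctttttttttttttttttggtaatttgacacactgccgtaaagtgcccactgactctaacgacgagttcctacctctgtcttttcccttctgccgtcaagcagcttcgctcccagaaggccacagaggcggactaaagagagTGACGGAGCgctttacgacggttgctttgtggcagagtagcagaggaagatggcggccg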

How the data were processed

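The arrays were Agilent SurePrint G3 for mouse, hybridized in 2 colours, 4 with gastrocnemius and 4 with TA. Spot intensity and local background, per the file headers, are median pixel values from Agilent Feature Extraction that the authors deposited without normalization. Agilent's log10 ratio of Cy5 over Cy3, per the file headers, was not used for tests. The log2 table that the authors deposited matched a loess normalization of the uncorrected intensities on all 8 arrays, and served as an alternative.

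Intensities were corrected by normexp (offset 50), normalized by loess within arrays and by quantiles across 16 channels, and spots of a probe were averaged (limma 3.58.1, R 4.3.3). Of 55681 probes, 27235 were matched to a gene through RefSeq accessions. Probes were tested in a muscle when each of its 4 arrays had Cy3 or Cy5 well above background, which left 23802 in gastrocnemius, 23391 in TA and 22765 in both. Ratios were tested by limma with Benjamini-Hochberg adjustment over all kept probes, and the number of arrays limits the precision. Nothing states that pairs of equal number in the 2 muscles are the same mice. Procedures were tested on simulated data. Where several probes measured 1 gene, the value of the brightest (mean of 16 channels) was taken, whether kept or not. Values had first been computed with the brightest among the kept probes. The rule as planned was restored after results had been seen, and the first version is among the alternatives.

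Genes were given array by array if called in any of 5 comparisons or among the 3 highest or 3 lowest ratios of a muscle, and partners were named if called. The members and lists were chosen with earlier results of these data known. Figures were drawn with matplotlib 3.10.9 (Python 3.11.15).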

Additional observations from a re-analysis of the deposited data

Results flagged for a closer look

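Among 50 sets of 4 arrays, 5 had 1 array whose gap to its nearest neighbour took up nearly the whole range. Chance flags about 1 in 20 such sets. In gastrocnemius, Psmd7 had a log2 ratio of -0.24 in pair 3, with the others from -0.43 to -0.40. Psmc4 stood at -0.30 in gastrocnemius pair 2, with the others from -0.14 to -0.13. Psmf1 reached -0.53 in TA pair 1, against -0.30 to -0.29 in the rest. The Eif6+/- log2 signal of Psma2 in TA was 13.68 in pair 2 and 13.55 to 13.56 otherwise. That of Psmb6 in TA was 14.73 in pair 4 and 14.84 to 14.85 otherwise.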

How the results depend on the processing

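Counts of proteasome genes called under alternative settings were as follows, and the cause of any change was not tested. With Agilent's processed signals 2 were called in gastrocnemius (1 higher, 1 lower), 1 in TA (higher) and 0 between muscles in Eif6+/-, where 4 had an unadjusted p under 0.05 (limma). Of all genes that setting called 1000, 774 and 1915. With a normexp offset of 0 the counts were 7 in TA (3 higher, 4 lower) and 1 in Eif6+/- between muscles, with 1215 and 1841 of all genes. That last count was 1 with no filter on dim probes (1498 of 20646 genes) and 0 at a threshold of 0.05 (1044 of all genes), where limma gave 8 an unadjusted p under 0.05. Averaging the probes of a gene gave 2 between muscles in WT (2562 of all genes), and turned the log2 ratio of Psmb5 to -0.0664 in gastrocnemius and -0.0465 in TA. Leaving out 1 array at a time gave 0 to 9 in gastrocnemius, 1 to 12 in TA, 1 to 3 in WT and 0 to 3 in Eif6+/- between muscles. SAM called 15 in each muscle at an FDR of 0.1 (gastrocnemius 8 higher and 7 lower, TA 7 and 8), where 3158 of all 12609 genes were called in gastrocnemius and 2604 of 12381 in TA. At an FDR of 0.05 it called 9 and 8, with 1703 and 948 of all genes. For the difference between the muscles' genotype effects the count was 0 under all settings run, with at most 1 at an unadjusted p under 0.05 (limma). Of the values of single genes under alternatives, 465 kept direction and side of the threshold, 127 lost the call, 8 gained it and 2 changed sign. The brightest among the kept probes was the rule used first, and the change to the present rule came after results had been seen. With the first rule the counts were also 10, 11, 0, 1 and 4. The genes tested were then 12615 in gastrocnemius, 12387 in TA and 12206 in both. Whether equal pair numbers mark a pairing across muscles was not settled: correlations between equal numbers were -0.145, 0.0186, -0.356 and 0.0896 for log2 ratios, -0.376, 0.114, -0.071 and 0.192 in the WT channel and 0.187, 0.0153, 0.0226 and 0.153 in the Eif6+/- channel. With the pair number as a replicate block the counts were 0 for the difference of genotype effects, 1 in WT and 4 in Eif6+/-.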
